A study of Arabidopsis thaliana with 4 samples.

Results

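The satellite array of Arabidopsis thaliana centromere 3 was described from 10 kb windows between positions 13600001 and 15730000 of chromosome 3 in the ColCEN assembly, the reference named in the deposited data. A window was counted as satellite where at least 50% of its listed C and G positions carried the same base 176 to 180 bp further on, at the best of these distances. Of the 213 windows in this range of 2.13 Mb, 204 met the rule, out of 13159 nuclear windows in all. The best distance was 178 bp in all 204 windows. The repeat share of the members had a median of 81.2% and ran from 50.9% to 92.5%. The members just inside the limit stood at 50.9%, 53.9% and 53.9%, and the windows just outside it at 49.6% and 48.3%. Windows of the pericentromere, within 2 Mb of the array on either side, had a median share of 20.4%.

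The centromeres of Arabidopsis are built from head-to-tail copies of one short satellite, on which the centromeric histone variant CENH3 sits, flanked by transposon-rich pericentromeric heterochromatin. Plants methylate cytosines in 3 sequence contexts, CG, CHG and CHH, where H is any base but G. CG methylation is copied after replication by MET1. CHG methylation is kept mainly by CMT3, which reads a methyl mark on histone H3. CHH methylation is laid down by CMT2 in heterochromatin, with a known preference for CAA and CTA, and by the small-RNA-directed pathway that uses DRM2. DDM1 is a chromatin remodeller needed to keep methylation in heterochromatin, and RDR2 is the RNA polymerase that makes the precursors of the small RNAs. CCR4a and CCR4b are deadenylases of the CCR4-NOT complex, which shorten the poly(A) tails of mRNAs.

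Enzymatic methyl-seq, in which unmethylated cytosines are deaminated by enzymes and read as T, was run on leaf DNA of Col-0 plants aged 6 weeks and grown on soil in long days. The 4 genotypes were wild type (WT), the double mutants ccr4a ccr4b and ddm1 rdr2, and the quadruple mutant ccr4a ccr4b ddm1 rdr2, with 1 library each. No allele numbers are given in the sources used here. With 1 library per genotype there is no replicate spread and no test between genotypes. The 95% intervals (Wilson for a level, Newcombe for a difference) cover counting error only, and a difference between 2 libraries cannot be told apart from a difference between 2 genotypes.

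The repeat unit of the array was rebuilt from the listed cytosines, and 11735 copies were placed, covering 97.7% of the bases. The consensus, shown because every result on single cytosines refers to its numbering, was 178 bp long and counts from the C of the CG that follows its longest stretch without a CG. Its line below has the 3 CG dyads in capitals, at positions 1 and 2, 49 and 50, and 56 and 57. The letter n stands for A or T where the copies did not settle which. A capital C marks a cytosine of the written strand and a capital G one of the opposite strand.

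Unit, CG in capitals: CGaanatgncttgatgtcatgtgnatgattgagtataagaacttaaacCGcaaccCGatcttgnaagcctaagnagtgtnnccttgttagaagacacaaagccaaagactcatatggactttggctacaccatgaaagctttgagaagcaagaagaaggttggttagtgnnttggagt

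The next pair of lines shows the 12 CHH cytosines with the highest methylation level in WT and in ddm1 rdr2, since the place of CHH methylation in the unit differed between these libraries.

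Unit, highest CHH in WT: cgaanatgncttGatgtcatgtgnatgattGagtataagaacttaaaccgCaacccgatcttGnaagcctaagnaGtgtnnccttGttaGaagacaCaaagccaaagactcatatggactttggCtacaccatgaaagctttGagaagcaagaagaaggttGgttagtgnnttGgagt

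Unit, highest CHH in ddm1 rdr2: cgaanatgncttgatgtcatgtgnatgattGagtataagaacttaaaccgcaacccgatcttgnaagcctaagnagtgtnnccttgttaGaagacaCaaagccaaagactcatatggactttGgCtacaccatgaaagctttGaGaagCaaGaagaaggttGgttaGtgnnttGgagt

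The unit was poor in CG and CHG sites. Beside its 6 CG cytosines it held 2 CHG cytosines, both CCG, at positions 48 and 55, and 62 CHH cytosines. The copies differed from the consensus by a median of 6 edits, from 0 to 25, in an alphabet that does not tell A from T. Of the copies, 9552 had the consensus length. There were 5090 distinct unit sequences. A sequence found once accounted for 3464 copies, and the most frequent sequence for 189 copies. The copies pointed one way over the left side of the array and the other way over the right side. The main run to the left had 6592 units from 13713336 to 14919858, and the run to the right had 4549 units from 14919878 to 15729978, so that the switch lay at 14919878. A further 587 units from 13600059 to 13704709 pointed the same way as the main left run, and 7 units from 13711906 to 13713151 the opposite way.

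Coverage of the array was thin, and it was thinnest in ccr4a ccr4b. Over the 775783 cytosines listed in the array, the mean number of calls per cytosine was 2.74 in WT and 0.722 in ccr4a ccr4b, against 2.43 in ddm1 rdr2 and 3.85 in the quadruple mutant. The share that reached 4 calls was 28.7%, 8.74%, 27.0% and 36.1% in the same order. The 4 libraries together had at least 4 calls at 43318 cytosines, or 5.58%, of which 4704 were CG, 2225 CHG and 36389 CHH. Levels below are the methylated share of all calls at these shared cytosines unless each library's own cytosines are named. Coverage was highest in unique copies: units whose sequence occurred once had 5.26 calls per cytosine in WT and 1.30 in ccr4a ccr4b, units found 6 to 20 times had 1.37 and 0.293, and units found over 20 times had 1.52 and 0.335. At least 4 calls in all 4 libraries were reached by 12.5% of the cytosines in units found once, and by 1.94% to 3.66% in the others, so that the array is described mostly from its least repeated copies. In the chloroplast, whose DNA is taken as unmethylated, the levels ran from 0.074% to 0.110% over the 4 libraries and 3 contexts.

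In WT the array was highly methylated in CG, moderately in CHG and weakly in CHH. The CG level was 73.1% in WT and 66.5% in ccr4a ccr4b, against 4.72% in ddm1 rdr2 and 2.26% in the quadruple mutant. The CHG level was 37.5%, 34.1%, 7.44% and 2.87% in the same order. The window from 13800001 to 13810000 held 51.8% of the methylated CHG calls of ddm1 rdr2, and without it the levels were 33.8%, 30.1%, 4.27% and 2.57%. The CHH level was 8.58%, 5.56%, 10.1% and 7.40%. CG and CHG were thus high in both genotypes with DDM1 and RDR2 and low in both without them, whereas CHH was highest in ddm1 rdr2 and lowest in ccr4a ccr4b.

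**Figure D1:**
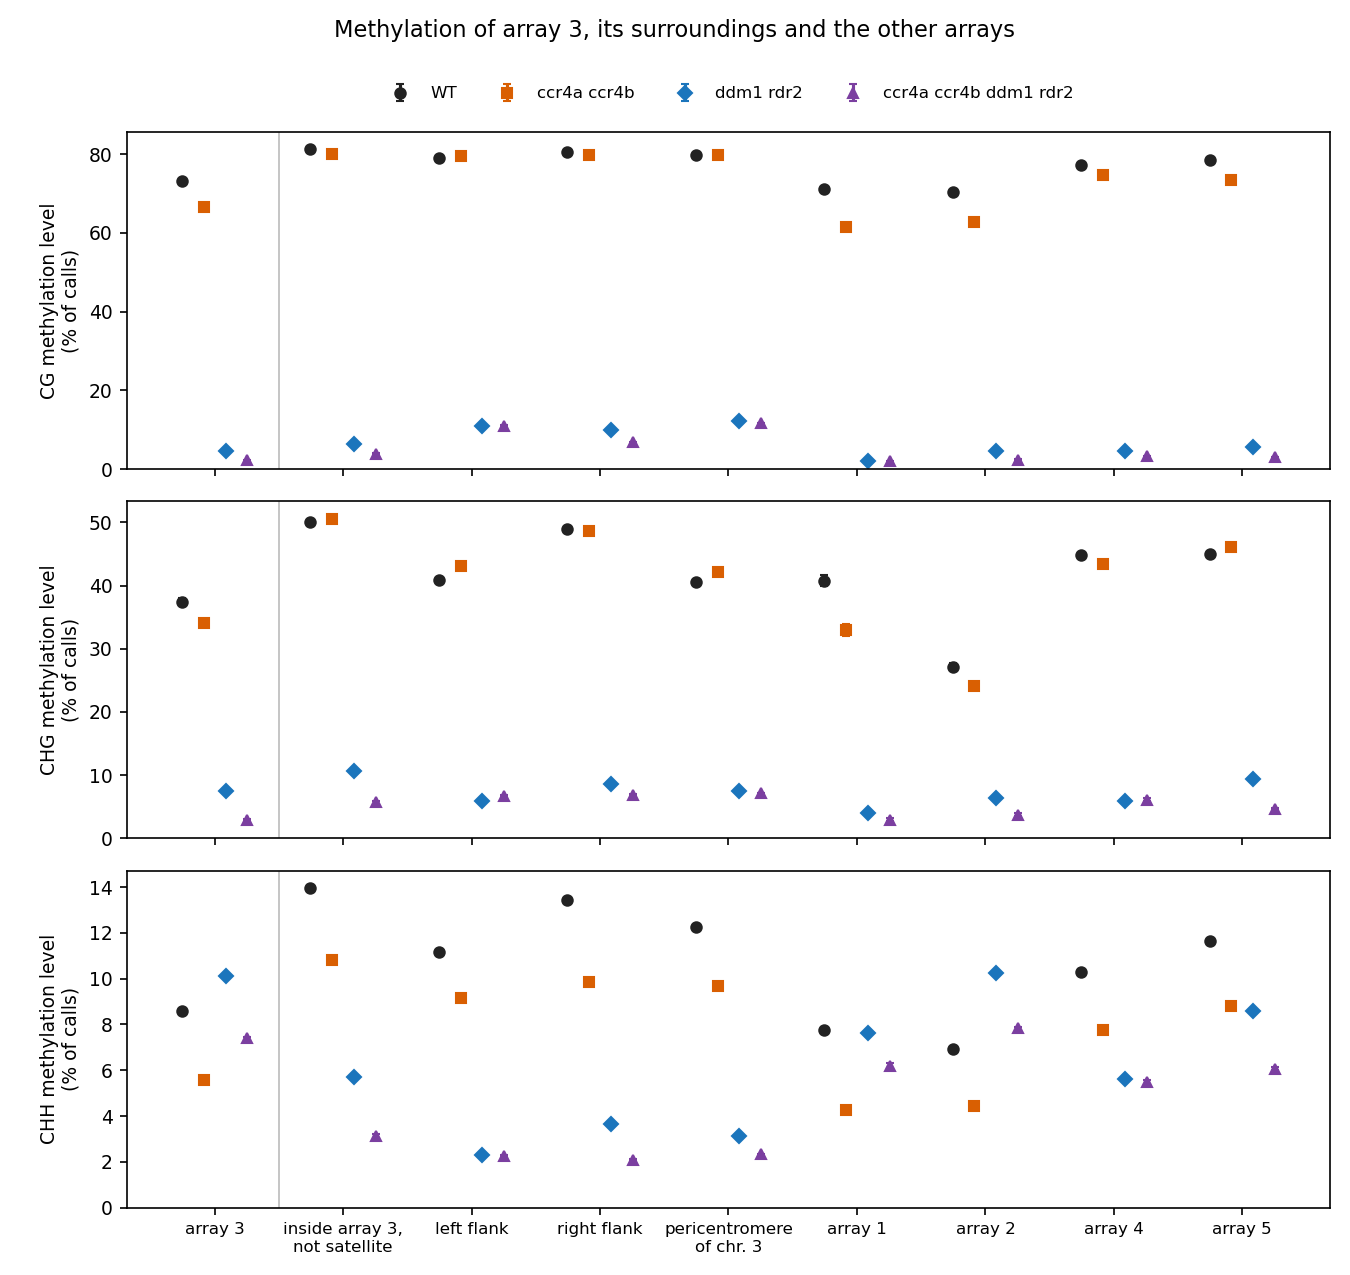
Methylation level (percent of calls) in CG, CHG and CHH for array 3, its surroundings and the other 4 centromere arrays, one point per library with its 95% Wilson interval. In CHH the ddm1 rdr2 point lies above WT in arrays 3 and 2 and below WT in the flanks, the pericentromere and arrays 4 and 5. In array 1 the points differ by -0.16 points, with an interval that includes 0.

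The ddm1 rdr2 library was compared with WT, the pair that differs in the remodeller and the small RNA pathway. The CG level was lower by 68.4 points in ddm1 rdr2 (difference -68.4, 95% interval -68.7 to -68.0) and the CHG level by 30.02 points (-30.02, -30.6 to -29.4). The CHH level of the array was higher in ddm1 rdr2 by 1.55 points (1.42 to 1.67), and by 2.52 points at each library's own cytosines. At the 2654 cytosines that reached 10 calls in every library the sign turned, to -2.80 points. Of these deeper cytosines 23.7% lay outside the placed units, against 3.12% of the cytosines used throughout. The 3 windows richest in them held 25.7% of the deeper cytosines. For the cytosines used throughout, the 3 richest windows held 6.59%. Inside placed units the CHH difference was 2.51 points (2.38 to 2.64) at 4 calls and 2.22 points (1.82 to 2.62) at 10 calls. Outside them it was -7.91 points (-8.29 to -7.53) and -9.09 points (-9.51 to -8.68). Outside the units the CHH level was 12.3% in WT and 9.34% in ccr4a ccr4b, against 4.38% in ddm1 rdr2 and 1.35% in the quadruple mutant, at 1137 cytosines. Inside the units, CHH sites of the consensus had 8.07% in WT and 10.7% in ddm1 rdr2. Variant CHH sites, which the consensus lacks, had 12.4% and 9.24%, at 908 cytosines. The higher CHH level of ddm1 rdr2 was thus measured at consensus sites of the repeat units. Variant sites and the cytosines not placed in a unit were lower.

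The surroundings of the array had less CHH in ddm1 rdr2 than in WT. In the pericentromere of chromosome 3 the CHH level was 12.2% in WT and 3.15% in ddm1 rdr2. In the 100 kb to the left it was 11.1% and 2.32%, and in the 100 kb to the right 13.4% and 3.67%. The 9 windows inside the array that did not meet the satellite rule had 14.0% in WT and 5.70% in ddm1 rdr2. As a share of the WT level, ddm1 rdr2 kept 118% of CHH in the array, 40.8% in the windows inside it that are not satellite and 25.7% in the pericentromere. For CG the shares were 6.46%, 7.86% and 15.2%, so that the array kept less CG than the pericentromere. The arrays of the other chromosomes went from 7.77% to 7.61% in CHH on chromosome 1, from 6.93% to 10.2% on chromosome 2, from 10.3% to 5.61% on chromosome 4 and from 11.6% to 8.59% on chromosome 5. The difference on chromosome 1, -0.16 points (-0.34 to 0.021), turned to 0.79 points (0.72 to 0.87) at each library's own cytosines. The others kept their sign there. They went from 3.31 to 3.91 points on chromosome 2, from -4.69 to -1.08 on chromosome 4 and from -3.04 to -0.42 on chromosome 5. Inside placed units no array was lower in ddm1 rdr2: the difference was 0.48 points (0.29 to 0.67) on chromosome 1, 3.53 points (3.41 to 3.65) on chromosome 2, 0.80 points (0.59 to 1.01) on chromosome 4 and 0.058 points (-0.072 to 0.19) on chromosome 5. Array 3, with 2.51 points in its units, lay inside the range of the other arrays. Outside the units the other arrays had -7.94, -0.26, -9.71 and -7.69 points in the same order, and on chromosome 2 the interval included 0 (-0.81 to 0.28).

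Among single windows with at least 50 calls in both libraries, 154 of 154 windows of the array were lower in CG by at least 5 points in ddm1 rdr2, where 45.2% of all nuclear windows were. In CHG 116 of 119 windows were lower by that much, against 28.8% of nuclear windows. In CHH, with a limit of 2 points, 90 of 192 windows were higher, against 3.62% of nuclear windows, and 35 were lower, against 25.9%. The share of higher windows was 46.9% in array 3 and 40.4% in the other 4 arrays together. The interval of the difference lay above 0 in 87 windows and below 0 in 30.

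The CHH level turned on the position in the unit. In WT the highest levels were at position 31 with 55.5%, position 63 with 42.6% and position 51 with 38.7%, all in CAA. Positions 54 and 60, on either side of the dyad at 56 and 57, had 2.002% and 4.75% in WT. They lie in CCC and CTT, so nearness to a CG dyad was not separated from the trinucleotide and was not tested. In ddm1 rdr2 positions 31, 63 and 51 had 34.1%, 22.3% and 18.3%. At the other end of the unit the order was the reverse: position 143 had 18.5% in WT and 36.1% in ddm1 rdr2, position 152 had 11.1% and 28.8%, and position 162 had 14.7% and 30.9%. Of the 62 CHH positions, 45 were higher and 17 lower in ddm1 rdr2. Of the 12 highest positions in each library, 7 were shared. In WT 3 of the 12 lay between positions 31 and 66 and 4 between 121 and 178, and in ddm1 rdr2 1 and 9. The latter stretch holds more of the 62 CHH positions than the former, so the counts compare the libraries and not the stretches.

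**Figure D2:**
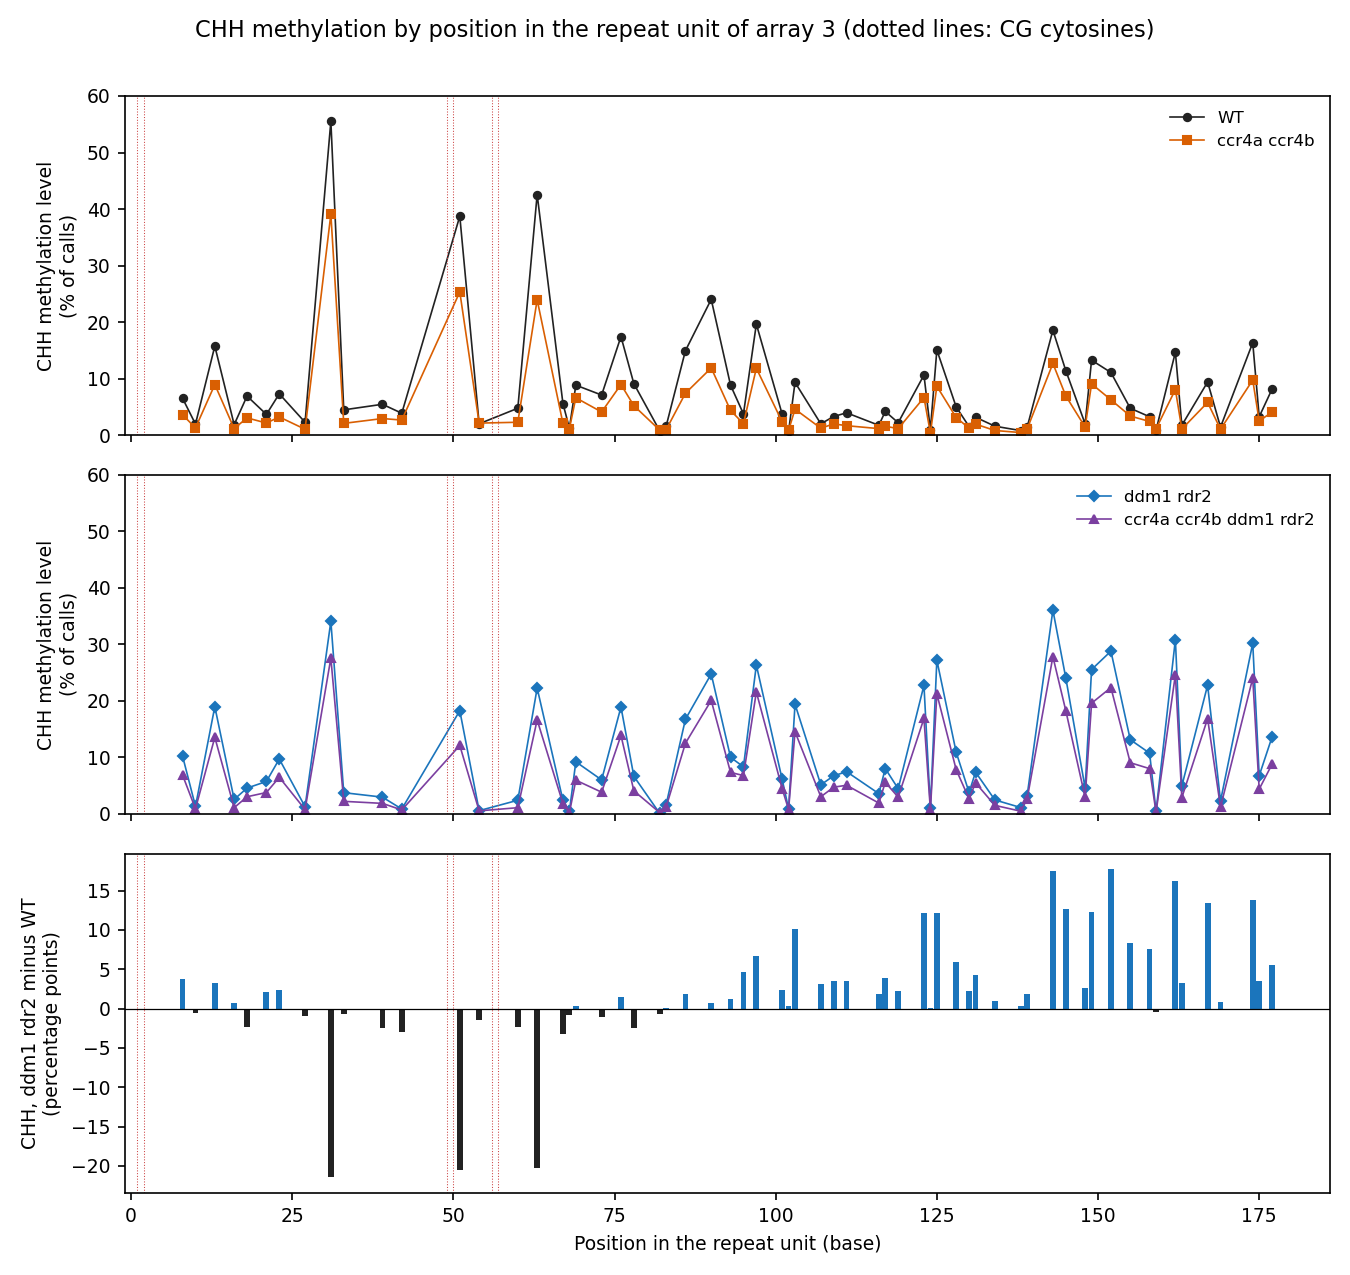
CHH methylation level (percent of calls) at the 62 CHH positions of the repeat unit, for WT and ccr4a ccr4b above, ddm1 rdr2 and the quadruple mutant in the middle, and the difference ddm1 rdr2 minus WT in percentage points below. Dotted lines mark the CG cytosines; the difference is negative at positions 31, 51 and 63 and positive at all positions beyond 90 other than 159.

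Summed over stretches of the unit, whose limits were drawn after the profile had been seen, the CHH level between positions 31 and 66 was 19.5% in WT and 12.3% in ccr4a ccr4b, against 10.4% in ddm1 rdr2 and 7.44% in the quadruple mutant. Between 151 and 178 it was 6.67%, 4.04%, 14.8% and 10.99%. The difference ddm1 rdr2 minus WT was -9.08 points (-9.52 to -8.63) in the former stretch and 8.11 points (7.78 to 8.45) in the latter. The stretches between gave intermediate values, with 1.04 points at positions 1 to 30, -0.43 points at 67 to 90, 3.55 points at 91 to 120 and 6.34 points at 121 to 150. CAA and CTA and the other CHH cytosines had the same signs between 31 and 66 and between 151 and 178. Between 67 and 90 the difference was 0.63 points (-0.13 to 1.40) in CAA and CTA. In the other CHH cytosines it was -1.05 points (-1.31 to -0.79) there. CAA and CTA had 44.03% in WT and 23.4% in ddm1 rdr2 between 31 and 66, and 13.7% and 28.4% between 151 and 178. The other CHH cytosines had 4.19% and 2.16% in the former stretch, and 4.03% and 9.75% in the latter. The other arrays had negative differences between 31 and 66, with -10.1 points on chromosome 1, -4.56 on chromosome 2, -7.95 on chromosome 4 and -9.67 on chromosome 5. Between 151 and 178 they had 5.42, 7.10, 4.92 and 3.84 points. As a description over positions that share libraries and depth, the WT profile of array 3 had Pearson's r of 0.967 to 0.989 with the other arrays over 59 to 61 positions.

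The CG sites of the unit differed from each other. The dyad at positions 1 and 2 had 39.2% in WT and 36.03% in ccr4a ccr4b, against 2.37% in ddm1 rdr2 and 1.28% in the quadruple mutant. The dyad at 49 and 50 had 85.4%, 73.7%, 2.83% and 0.962%. The dyad at 56 and 57 had 87.5%, 75.9%, 12.7% and 6.62%. The dyad at 1 and 2, after the longest stretch without a CG, was thus the least methylated in WT, and the dyad at 56 and 57 was the one that kept most in ddm1 rdr2.

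The dyad at 56 and 57 was present in 6582 units, and in 2936 units a CG stood 1 base earlier, at 55 and 56. The earlier CG had 86.2% in WT and 71.3% in ccr4a ccr4b, against 2.35% in ddm1 rdr2 and 1.25% in the quadruple mutant. In WT the intervals of the 2 forms overlapped, with 86.8% to 88.2% at 56 and 57 and 85.2% to 87.2% at 55 and 56. In ddm1 rdr2 they did not, with 12.004% to 13.4% and 1.93% to 2.85%. Only 84 units had both, and 2301 had neither. In ddm1 rdr2 the dyad at 56 and 57 had 10.01% on chromosome 2, 6.87% on chromosome 4 and 7.60% on chromosome 5. On chromosome 1 it had 3.19%, on 439 calls.

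**Figure D3:**
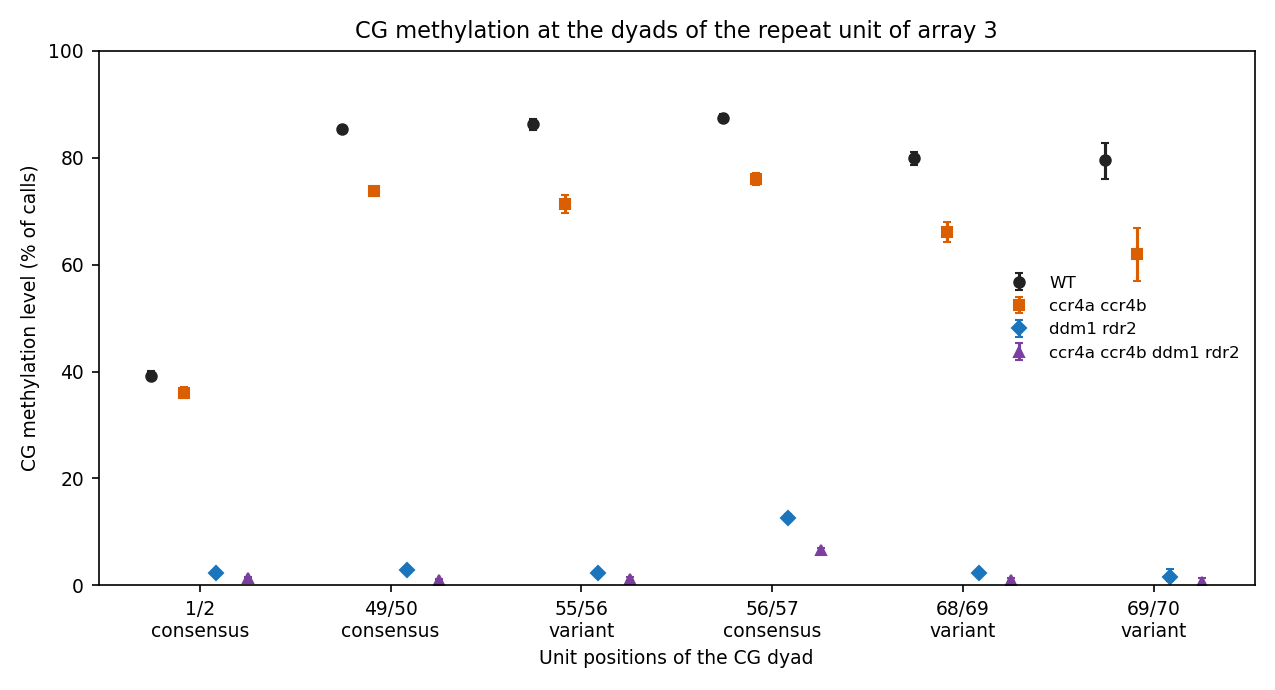
CG methylation level (percent of calls) at the CG dyads found in at least 500 units of array 3, one point per library with its 95% Wilson interval. In ddm1 rdr2 the dyad at 56 and 57 stands at 12.7% and the other dyads between 1.60% and 2.83%.

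CHG methylation differed by trinucleotide. CAG had 46.6% in WT and 44.4% in ccr4a ccr4b, against 13.7% in ddm1 rdr2 and 5.63% in the quadruple mutant. CTG had 46.3%, 44.7%, 14.7% and 5.91%, and CCG had 30.5%, 24.3%, 2.31% and 1.06%. CAG and CTG, which the consensus unit lacks, rest on 365 and 357 cytosines, and CCG on 1503. Without the window from 13800001 to 13810000, ddm1 rdr2 had 8.26% in CAG, 8.17% in CTG and 2.17% in CCG. The difference of ccr4a ccr4b from WT was -2.24 points (-3.97 to -0.51) in CAG and -1.62 points (-3.34 to 0.11) in CTG. At each library's own cytosines these turned to 0.50 points (-0.94 to 1.95) and 2.39 points (0.94 to 3.83), while CCG stayed lower, with -6.17 and -5.71 points. In the unit the CCG at position 48 had 23.7% in WT and 1.42% in ddm1 rdr2, and the one at 55 had 37.9% and 5.88%.

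Among CHH trinucleotides CAA and CTA were the highest in all 4 libraries. CAA had 23.0% in WT and 15.1% in ccr4a ccr4b, against 23.9% in ddm1 rdr2 and 18.1% in the quadruple mutant. CTA had 17.5%, 11.8%, 21.9% and 16.3%. CTC was next in all 4 libraries, with 7.40%, 4.76%, 10.2% and 7.37%. CCC and CCT were the lowest, and in ddm1 rdr2 they stood at 0.565% and 0.456%, below their WT levels of 1.08% and 1.11%.

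The ccr4a ccr4b library was compared with WT, the pair that differs in the deadenylases where DDM1 and RDR2 are present. The CG level was lower by 6.55 points (difference -6.55, 95% interval -7.12 to -5.98), the CHG level by 3.32 points (-3.32, -4.12 to -2.52) and the CHH level by 3.02 points (-3.02, -3.14 to -2.90). As a share of WT this left 91.0% of CG, 91.1% of CHG and 64.8% of CHH. Inside placed units the CG difference was -9.86 points, and where every library reached 10 calls it was -2.79 points. The CHG difference ran from -6.58 to -1.27 points over the alternatives. CG in the surroundings differed less, with 79.7% in both libraries in the pericentromere and 79.0% and 79.4% in the left flank. As a mean of single cytosines the CG difference was -1.85 points in the pericentromere and -1.96 points in the left flank, against -8.69 points in the array. The CHH level was lower in the surroundings too, from 12.2% to 9.68% in the pericentromere. Coverage of this library was thin over the array as a whole, and whether coverage bears on the CG difference was not tested. By number of copies, the CG difference was -11.2 points (-12.03 to -10.4) in units found once. It was -4.01 points (-6.56 to -1.47) in units found over 20 times. Units found 2 to 5 times had -8.18 points and those found 6 to 20 times -8.30 points. At each library's own cytosines the classes lay closer together. Units found once had -10.9 points (-11.5 to -10.2) and those found over 20 times -6.41 points (-8.09 to -4.76). Units found 2 to 5 times had -7.09 points there and those found 6 to 20 times -7.85 points.

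Of 143 windows of the array, 84 were lower in CG by at least 5 points in ccr4a ccr4b, against 15.6% of nuclear windows, and 14 were higher, against 8.35%. In CHG 52 of 98 were lower, against 3.49%, and 12 were higher, against 4.3%. In CHH 139 of 191 were lower by at least 2 points, against 19.5%, and 18 were higher, against 1.95%. The share of windows lower in CG was 58.7% in array 3 and 59.8% in the other 4 arrays together, and in CHH 72.8% and 65.9%. The interval lay below 0 in 66 windows for CG, 42 for CHG and 138 for CHH, and above 0 in 10, 8 and 16. The windows had a median of 104.5 CHG calls in ccr4a ccr4b and 181.5 in WT.

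In the unit, the ccr4a ccr4b profile had the shape of the WT profile at a lower level. It was lower at 58 of the 62 CHH positions. Position 31 had 55.5% in WT and 39.1% in ccr4a ccr4b, position 63 had 42.6% and 23.9%, and position 90 had 24.02% and 11.9%. Over the 62 positions, which share the libraries and their depth, Pearson's r between the WT and ccr4a ccr4b levels was 0.988, and that between WT and ddm1 rdr2 was 0.733. By rank the profiles of WT and ddm1 rdr2 were more alike, with Spearman's rho of 0.866, against 0.967 for WT and ccr4a ccr4b.

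The quadruple mutant was compared with ddm1 rdr2, the same deadenylase mutations where DDM1 and RDR2 are absent. The CG level was lower by 2.47 points (difference -2.47, 95% interval -2.67 to -2.26), the CHG level by 4.58 points (-4.58, -4.93 to -4.23) and the CHH level by 2.72 points (-2.72, -2.84 to -2.60). As a share of the ddm1 rdr2 level this left 47.8% of CG, 38.5% of CHG and 73.1% of CHH. The CHG value depended on 1 window, from 13800001 to 13810000, which held 15.0% of all CHG calls. There the CHG level was 55.7% in WT and 54.3% in ccr4a ccr4b, against 24.2% in ddm1 rdr2 and 5.08% in the quadruple mutant. Without it the CHG difference was -1.69 points, and the quadruple mutant had 60.3% of the CHG level of ddm1 rdr2.

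Of 158 windows, 20 were lower in CG by at least 5 points in the quadruple mutant, against 4.58% of nuclear windows, and 1 was higher, against 4.41%. In CHG 15 of 121 were lower, against 2.53%, and 2 were higher, against 1.29%. In CHH 102 of 193 were lower by at least 2 points, against 6.2%, and 18 were higher, against 1.39%. The share of windows lower in CHH was 52.8% in array 3 and 45.8% in the other 4 arrays together. The interval lay below 0 in 55 windows for CG, 26 for CHG and 106 for CHH, and above 0 in 3, 0 and 13. In the unit the quadruple mutant was lower than ddm1 rdr2 at 61 of the 62 CHH positions, and Pearson's r between the profiles was 0.997. Position 143 had 36.1% in ddm1 rdr2 and 27.8% in the quadruple mutant, and position 31 had 34.1% and 27.6%.

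**Figure D4:**
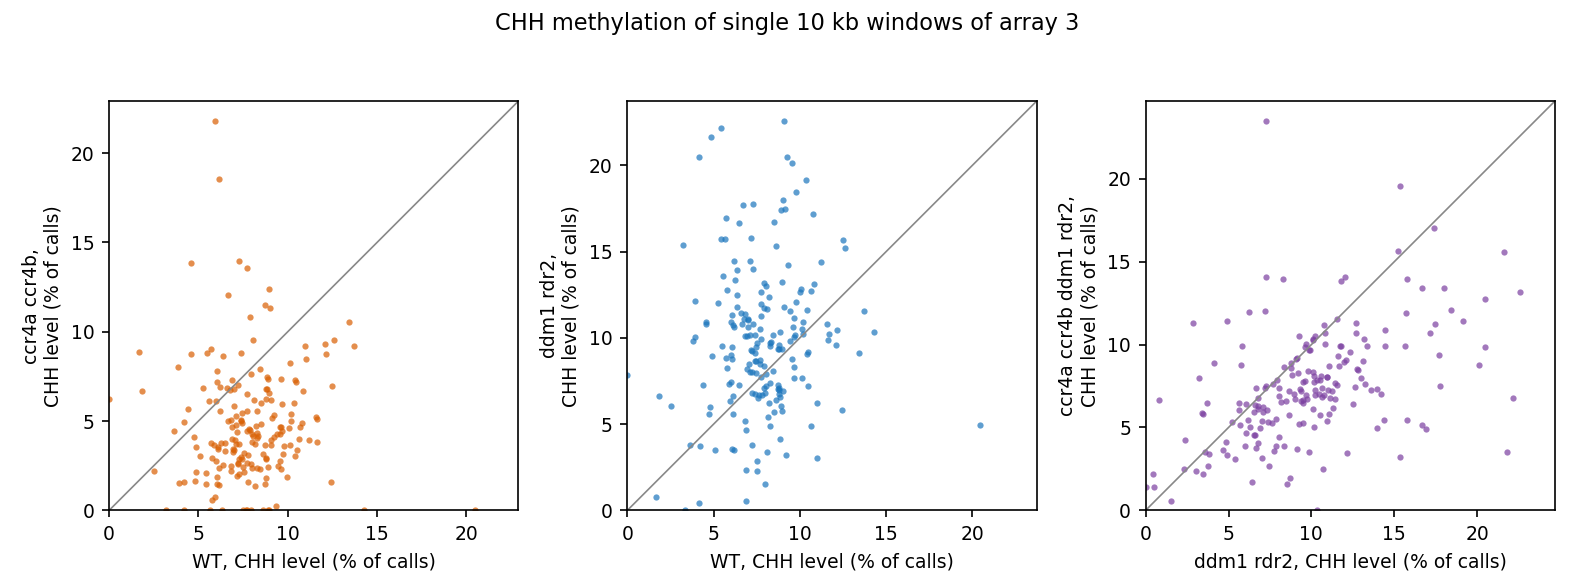
CHH methylation level (percent of calls) of single 10 kb windows of array 3 with at least 50 calls in both libraries of a pair, with the line of equal levels. Most windows lie below the line for ccr4a ccr4b against WT (139 lower by at least 2 points, 18 higher) and for the quadruple mutant against ddm1 rdr2 (102 and 18), and on both sides of it for ddm1 rdr2 against WT.

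Single windows differed widely in depth, and those named here had at least 200 calls per library. The window from 14250001 to 14260000, with 616 calls in WT, had the highest CHH difference of ddm1 rdr2 from WT, with 4.87% in WT and 3.56% in ccr4a ccr4b, against 21.6% in ddm1 rdr2 and 15.6% in the quadruple mutant. The window from 14740001 to 14750000, with a repeat share of 53.9% and 13739 calls in WT, had the lowest, with 11.01%, 8.47%, 3.05% and 2.38%. The window from 13600001 to 13610000, at the left edge, had the lowest CHH difference of the quadruple mutant from ddm1 rdr2, with 5.42%, 2.10%, 22.2% and 6.78%. Between windows the CHH level of WT had a standard deviation of 2.44 points over 193 windows, and that of ddm1 rdr2 4.38 points.

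Along the array, in 11 segments of 200 kb (the last of 13 windows), the CG level of WT ran from 68.5% to 80.4% and that of ddm1 rdr2 from 2.54% to 6.27%. CG, CHG and CHH were lower in ccr4a ccr4b than in WT in 11 of 11 segments, and lower in the quadruple mutant than in ddm1 rdr2 in 11 of 11. The interval lay below 0 in all of them for CG and CHH. For CHG it did so in 8 segments in the former comparison and 10 in the latter. At each library's own cytosines the CHG difference of ccr4a ccr4b from WT was positive in 3 segments. The CHH level of ddm1 rdr2 exceeded that of WT in 8 of 11 segments. The largest differences were 4.44 points in the segment from 14200001 to 14400000 and 4.02 points in the one from 13600001 to 13800000. The negative ones were -1.83 points from 13800001 to 14000000, -1.09 points from 14600001 to 14800000 and -0.59 points from 14800001 to 15000000. The first and the second of these turned positive at each library's own cytosines, with 0.24 and 1.91 points.

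**Figure D5:**
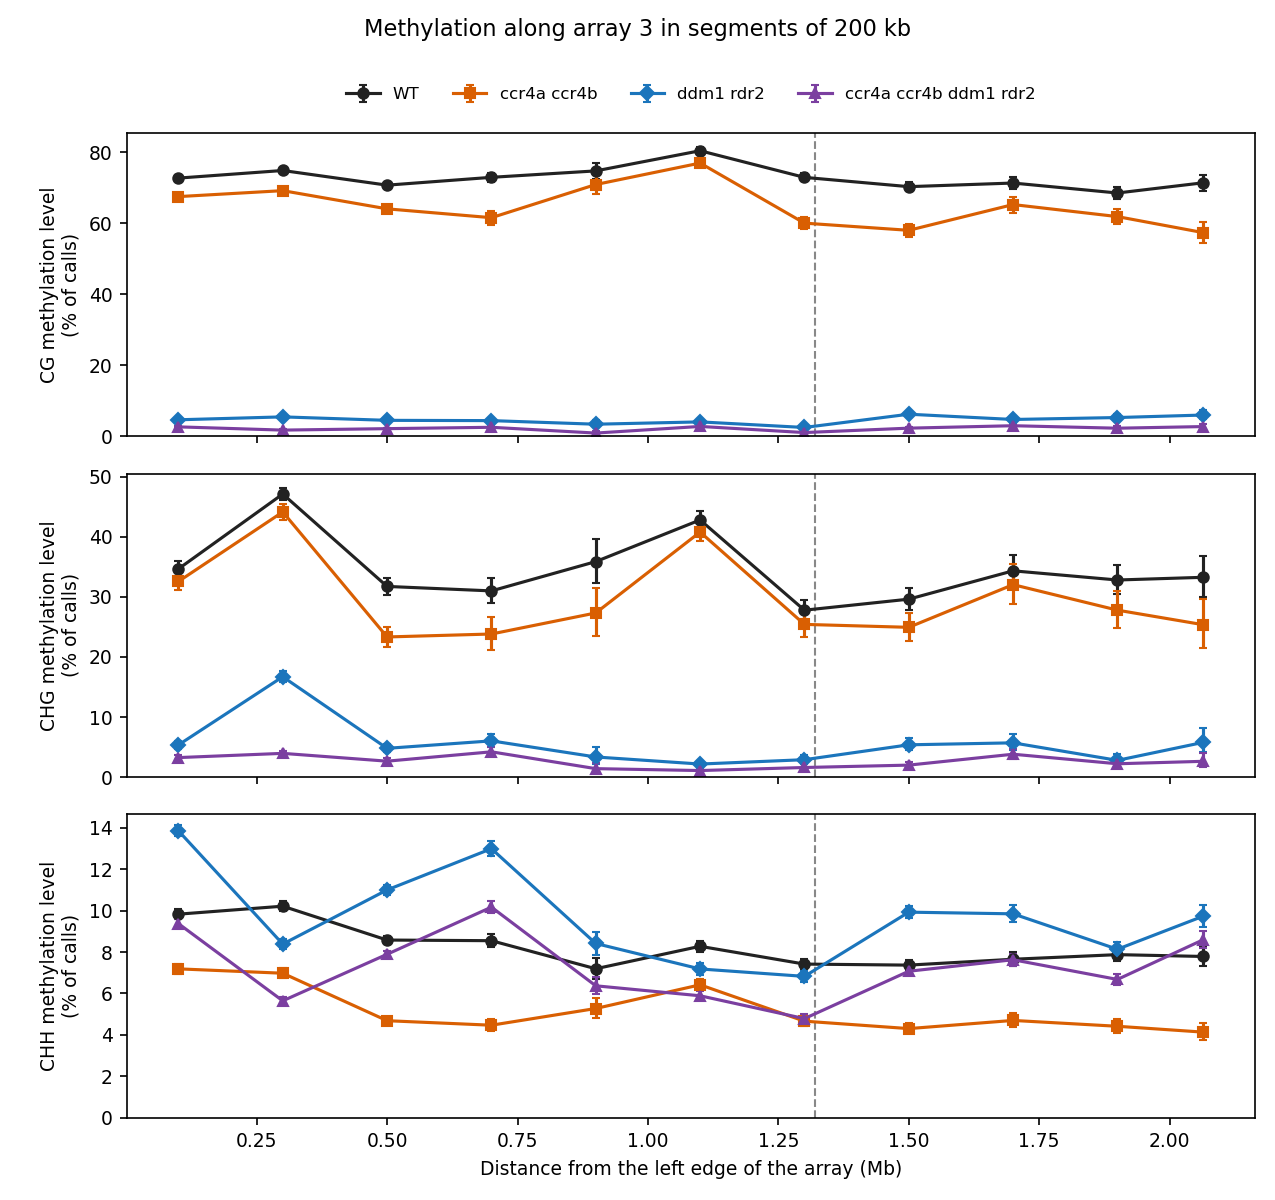
Methylation level (percent of calls) in 200 kb segments against the distance from the left edge of the array in Mb, one line per library with 95% Wilson intervals, and a dashed line where the repeat units switch orientation. CG separates the libraries into 2 levels in all segments, and CHH of ddm1 rdr2 lies above WT in 8 of 11.

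To the left of the orientation switch CHH had 9.04% in WT and 6.02% in ccr4a ccr4b, against 10.7% in ddm1 rdr2 and 7.69% in the quadruple mutant. To the right it had 7.56%, 4.42%, 8.87% and 6.85%, so that the order of the libraries was the same on both sides. By repeat share, the 8 windows from 50% to 60% had a lower CHH level in ddm1 rdr2 than in WT, with 5.97% against 8.67%. In the other 4 classes it was higher in ddm1 rdr2, by 0.48 to 3.14 points. The 100 windows from 80% to 90% had 8.17% in WT and 4.58% in ccr4a ccr4b, against 11.3% in ddm1 rdr2 and 8.16% in the quadruple mutant. Within each library the repeat share of a window was nearly unrelated to its CHH level, with Spearman's rho from -0.0716 to 0.0964 over 192 to 195 windows. These windows share the library and have unequal depth.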

How the data were processed

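Leaf DNA of 4 genotypes, 1 library each, was made into enzymatic methyl-seq libraries from 100 ng of DNA with 13 PCR cycles, per the labels. The authors deposited a genome-wide cytosine report per library, with the methylated and unmethylated count of calls, the context and the trinucleotide of each of 47872605 cytosines. Bismark 0.22.3 is named in the submitters' processing notes. Other settings, such as the handling of reads that match several repeats, are not given in the sources used here. In the files a covered cytosine had at least 3 calls.

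Windows, levels, intervals and unit positions were computed with Python 3.11.15, numpy 2.4.6, pandas 2.3.3 and edlib 1.3.9.post1. The main set held the cytosines that reached 4 calls in each of the 4 libraries. The unit was rebuilt from listed C and G positions, with A and T from trinucleotides, and copies were placed in both orientations with at most 25 edits. Windows needed 50 calls in both libraries of a comparison, and 200 in both to be named for it. For each comparison and context the window with the largest and the one with the smallest difference could be named, and for each context the 3 unit positions highest in WT. The other unit positions given, the stretches of the unit and the split by placed units were chosen after their values were seen. Scripts were tested on simulated data. The members and lists were chosen with earlier results of these data known. Amplified reads carry no molecular identifiers and are not independent, so intervals cover counting error only.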

Additional observations from a re-analysis of the deposited data

Results flagged for a closer look

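The values below had opposite signs for ccr4a ccr4b minus WT and for the quadruple mutant minus ddm1 rdr2 at the shared cytosines. The difference between the 2 values was not tested. All are percentage points.

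In the 9 windows inside the array that are not satellite, CHG had 0.53 (interval -0.0075 to 1.06) and -5.00, a difference of -5.53. In the 100 kb to the left, CG had 0.41 and -0.082 (-0.39 to 0.22), a difference of -0.49, and as a mean of single cytosines the former was -1.96, so that the signs were then the same. In the array, CCC had 0.021 (-0.32 to 0.38) and -0.32, a difference of -0.34. CCT had 0.20 (-0.017 to 0.42) and -0.19, a difference of -0.39. At each library's own cytosines the former values were -0.13 for CCC and -0.044 for CCT, with no opposite signs. At a repeat share of 90% to 100%, CHG had -13.2 and 0.27 (-1.34 to 1.72), a difference of 13.4, on 79 cytosines of 11 windows. At own cytosines both were negative, with -5.09 and -1.58.

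The 7 windows were named for the largest or smallest value of 1 comparison. In 3 of them the signs stayed opposite at each library's own cytosines. These were the window starting at 14040001, with 7.73 and -5.02 in CG, a difference of -12.7, the one at 13670001, with 12.1 and -5.05 in CHG, a difference of -17.2, and the one at 14480001, with 12.4 and -2.08 in CHH, a difference of -14.5. At own cytosines the CG value of the first of these, 3.51, had an interval from -1.46 to 8.16. In the other 4 windows both values were negative at own cytosines. The window at 13830001 had -28.8 and 0.17 in CG, a difference of 29.0, and the one at 14630001 had -8.43 and 1.89, a difference of 10.3. The window at 14910001 had -1.77 (-6.68 to 3.31) and 1.16 (-1.04 to 3.23) in CHG, a difference of 2.93, and both intervals included 0. The one at 14370001 had -10.8 and 4.09 (1.39 to 6.72) in CHH, a difference of 14.9.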

How the results depend on the processing

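No paired analysis was possible because each genotype had 1 library and the labels give no replicate numbers. The 9 differences of the array (3 comparisons in 3 contexts) were recomputed under 8 other settings. Of 72 values, 71 kept their sign, 19 lay within the interval of the reported value, and 52 lay outside it with the same sign. The cause of these shifts was not tested. All values below are differences in percentage points, and the last 2 settings were chosen after seeing the data.

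For CG in ccr4a ccr4b minus WT, the value was -2.79 with at least 10 calls, -8.69 as the mean of single cytosines, -7.34 in windows with a repeat share of at least 70%, -9.50 without cytosines over 3 times the median calls, -7.42 without the window with the most calls and -9.86 in placed repeat units. For CG in ddm1 rdr2 minus WT it was -71.2 with 10 calls, -67.3 as a mean of cytosines, -67.9 at each library's own cytosines, -67.5 at a 70% share, -67.6 without highly covered cytosines and -67.2 in placed units. For CG in the quadruple mutant minus ddm1 rdr2 it was -2.84 with 10 calls, -2.15 as a mean, -2.03 at own cytosines and -2.09 without the heaviest window.

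For CHG in ccr4a ccr4b minus WT, the value was -2.10 with 10 calls, -5.90 as a mean, -1.27 at own cytosines, -6.33 without highly covered cytosines and -6.58 in placed units. For CHG in ddm1 rdr2 minus WT it was -33.6 with 10 calls, -28.5 as a mean, -28.9 at own cytosines, -28.5 at a 70% share, -27.8 without highly covered cytosines and -27.7 in placed units. For CHG in the quadruple mutant minus ddm1 rdr2 it was -3.91 with 1 call, -8.94 with 10 calls, -2.68 as a mean, -2.90 at own cytosines, -5.28 at a 70% share, -3.31 without highly covered cytosines, -1.69 without the heaviest window and -1.96 in placed units.

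For CHH in ccr4a ccr4b minus WT, the value was -2.40 with 10 calls, -3.31 as a mean, -2.84 at own cytosines, -3.32 without highly covered cytosines and -3.31 in placed units. For CHH in ddm1 rdr2 minus WT it was 1.78 with 1 call, 2.16 as a mean, 2.52 at own cytosines, 1.89 at a 70% share, 2.38 without highly covered cytosines, 1.86 without the heaviest window and 2.51 in placed units, and it turned to -2.80 with 10 calls. For CHH in the quadruple mutant minus ddm1 rdr2 it was -1.97 with 10 calls, -2.95 at own cytosines, -2.92 at a 70% share, -2.95 without highly covered cytosines and -2.86 in placed units.

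At each library's own cytosines, 8 of 162 differences by segment, repeat share or side of the orientation switch changed sign. CHG in ccr4a ccr4b minus WT turned from -2.98 to 1.82 in segment 2, from -2.02 to 3.62 in segment 6, from -2.30 to 1.54 in segment 9, from -0.62 to 2.90 at a repeat share of 50% to 60% and from -1.41 to 0.73 at 70% to 80%. CHH in ddm1 rdr2 minus WT turned from -1.83 to 0.24 in segment 2 and from -1.09 to 1.91 in segment 6. CHG in the quadruple mutant minus ddm1 rdr2 turned from 0.27 to -1.58 at a share of 90% to 100%. CHH in ddm1 rdr2 minus WT between unit positions 67 and 90 turned from -0.43 to 0.057.

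With limits of 10 points in CG and CHG and 4 points in CHH, 9 of 18 window counts changed by over 1.5 times. For ccr4a ccr4b minus WT, CHH had 81 lower windows in place of 139 and 11 higher in place of 18. For ddm1 rdr2 minus WT, CHH had 58 higher in place of 90 and 14 lower in place of 35. For the quadruple mutant minus ddm1 rdr2, CG had 2 lower in place of 20 and 0 higher in place of 1, CHG 2 in place of 15 and 0 in place of 2, and CHH 53 in place of 102. Covered cytosines start at 3 calls in the deposited tables, and ccr4a ccr4b had the fewest calls per cytosine.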
